A study of Mus musculus with 6 samples.

Results

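Microglia genes were described as a set of 33 genes, taken by symbol in GENCODE mouse release M21 from the deposited gene table of a prefrontal cortex RNA sequencing study. All 33 were found among the 17889 genes of the table, and all 33 passed the filter for testing, a mean of 10 or more over the 6 libraries in normalized counts, which 14969 genes passed. The libraries came from C57BL/6J mice at postnatal day 28: 3 were labelled wild type (WT), and 3 were labelled Hetero, with the genotype given as Cyfip2 mutant. No treatment is given in the labels, and they do not describe the Cyfip2 allele or say which exons or cells it affects. They also do not say that the samples were separate animals, so each p-value rests on a spread between samples that may be technical. The labels describe tissue and no sorting of cells.

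Microglia are the resident macrophages of the brain. They are held in a resting, surveying state by signals such as CSF1R ligands and TGF-beta, clear debris through phagocytic receptors and lysosomal proteases, and are the main brain source of the complement starter C1q, which tags synapses for removal during postnatal development. Lineage factors such as PU.1, the product of Spi1, and IRF8 maintain the identity of these cells. Cyfip2 encodes a subunit of the WAVE complex, which drives branched actin assembly. The question here was how the RNA of these genes compared between Hetero and WT cortex.

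The series as a whole set the background. The values were already scaled, with totals of 29879143 to 30735443 per library, and the spacing of low values gave estimated depths of 25459300 to 43881200 reads, the deepest being Hetero sample 3. Cyfip2 read 31933, 30496 and 27503 in WT and 20959, 21237 and 18285 in Hetero, and the groups did not overlap (ratio 0.672, 95% interval 0.6 to 0.754, exact two-sided permutation p = 0.1, the lowest value possible with 3 samples in each group). The limma adjusted p of Cyfip2 was 0.31. In limma, 0 of the tested genes (0%) passed a Benjamini-Hochberg adjusted p under 0.05, and 573 (3.83%) had an unadjusted p under 0.05. The 11 neuron markers were present at high values in every library, with sums between 247121 and 264437 in each library. Sample 3 of each group stood apart in red blood cell genes: the 5 summed to 46065 in WT sample 3 and 52504 in Hetero sample 3, against 14808 to 27154 in the other libraries.

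The promoters of 25 of the 33 genes were found in the RefSeq sequences of GRCm38.p6. A few are shown, to place letters that match the core motif of the lineage factor PU.1. The 120 bases before the transcription start are printed 5′ to 3′ on the gene's strand, with the PU.1 core GAGGAA in capitals on either strand, where it reads TTCCTC when it lies on the other strand. The printed genes are Fcgr3 and Fcer1g, the members with the smallest unadjusted p, the integrin gene Itgam, the complement gene C1qb, and a receptor each of the phagocytic and purinergic kind. Those after Fcer1g are examples, with an unadjusted limma p of 0.17 to 0.48, and Ctss and Irf8 are not printed. The printed windows do not give the share of the set with the core, which is counted below.
Fcgr3 (chr1:171059404-171059523, minus strand): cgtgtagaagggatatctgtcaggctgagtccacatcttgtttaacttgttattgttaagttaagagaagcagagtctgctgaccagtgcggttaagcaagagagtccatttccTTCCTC
Fcer1g (chr1:171234350-171234469, minus strand): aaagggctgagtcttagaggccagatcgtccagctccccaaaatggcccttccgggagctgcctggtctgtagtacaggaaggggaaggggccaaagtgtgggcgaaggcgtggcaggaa
Itgam (chr7:128062520-128062639, plus strand): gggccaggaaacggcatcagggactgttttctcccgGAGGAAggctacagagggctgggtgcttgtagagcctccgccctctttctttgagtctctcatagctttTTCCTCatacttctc
C1qb (chr4:136886201-136886320, minus strand): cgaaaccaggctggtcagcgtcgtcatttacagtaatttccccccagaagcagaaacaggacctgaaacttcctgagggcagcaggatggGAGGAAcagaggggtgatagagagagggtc
Trem2 (chr17:48346281-48346400, plus strand): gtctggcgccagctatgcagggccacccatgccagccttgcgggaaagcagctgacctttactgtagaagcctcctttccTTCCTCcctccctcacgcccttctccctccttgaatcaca
P2ry13 (chr3:59210883-59211002, minus strand): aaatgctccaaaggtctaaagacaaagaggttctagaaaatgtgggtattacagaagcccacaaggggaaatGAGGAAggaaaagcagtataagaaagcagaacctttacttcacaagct

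The core GAGGAA lay on either strand of the window from 250 bases before to 50 bases after the start in 15 of the 25 matched members, and in 31.2% of all 27025 genes with such a window. Itgam held it 2 times before the start and 1 time after it, Fcgr3 held it directly before the start, and Fcer1g held it nowhere in its window. The longer form GAGGAAGT, which contains the core, was found in C1qc, Cd53, Ctss and Inpp5d, which is 4 of 25 members against 3.69% of all genes. The composite of an ETS and an IRF site, spelled GGAA and GAAA with 2 free bases between them, was found in 1 of 25 members, Cd68, against 3.16% of all genes. These are matches of letters, counted without regard to binding. Members had a median of 6 CG dinucleotides per window against 7 over all 32851 windows. C1qa, Csf1r, Gpr34, Selplg, Spi1, Tmem119, Tyrobp and Unc93b1 were not matched.

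Several members are neighbours in the genome. C1qa, C1qb and C1qc lie in a row on the minus strand of chromosome 4, with gaps of 2851 and 3616 bases, and P2ry13 and P2ry12 lie 5389 bases apart on chromosome 3. Tmem119 and Selplg are 18019 bases apart on chromosome 5, and Fcgr3 and Fcer1g are 164636 bases apart on chromosome 1. P2ry12 and P2ry13 lie inside the span of Med12l and Gpr34 inside that of Cask, each on the opposite strand. Libraries were stranded per the labels' protocols, but no source used here says whether the counting took strand into account. Med12l differed by a log2 change of -0.08 ± 0.12 (SE) and Cask by -0.04 ± 0.11 (SE). Irf8 lies inside Gm20388, a same-strand gene that read 18.8 in WT sample 1, 28.9 in WT sample 3 and 0 in the other libraries, so reads of Irf8 could be split between both. The gene model of Cx3cr1 overlaps those of Gorasp1 and Csrnp1 on the same strand, which carries the same doubt.

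Levels were compared between genes as normalized counts per kb of exon, averaged over the 6 libraries. The lysosomal protease genes led: Lgmn, which encodes legumain, had a level of 1687 per kb, and Ctss, which encodes cathepsin S, 1115 per kb. The C1q chains followed, with C1qb at 1025, C1qc at 851 and C1qa at 651 per kb, with Csf1r, the receptor of CSF1 and IL-34, between them at 699. At the low end stood the lineage factor genes Spi1 at 50.3 and Irf8 at 39.9 per kb, and Ptprc, the leukocyte phosphatase CD45, at 28.7, so the levels spanned a factor of 58.8. Of the 32 neighbouring pairs in this order, 3 had ranges over the 6 libraries that did not touch: Lgmn above Ctss, Cd68 above Itgam, and Aif1 above Spi1. The ranges of the other 29 pairs overlapped. Of these, 7 kept their order in all 6 libraries, among them C1qb above C1qc, C1qc above Csf1r, and Irf8 above Ptprc, and the order of the rest changed from library to library.

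**Figure D1:**
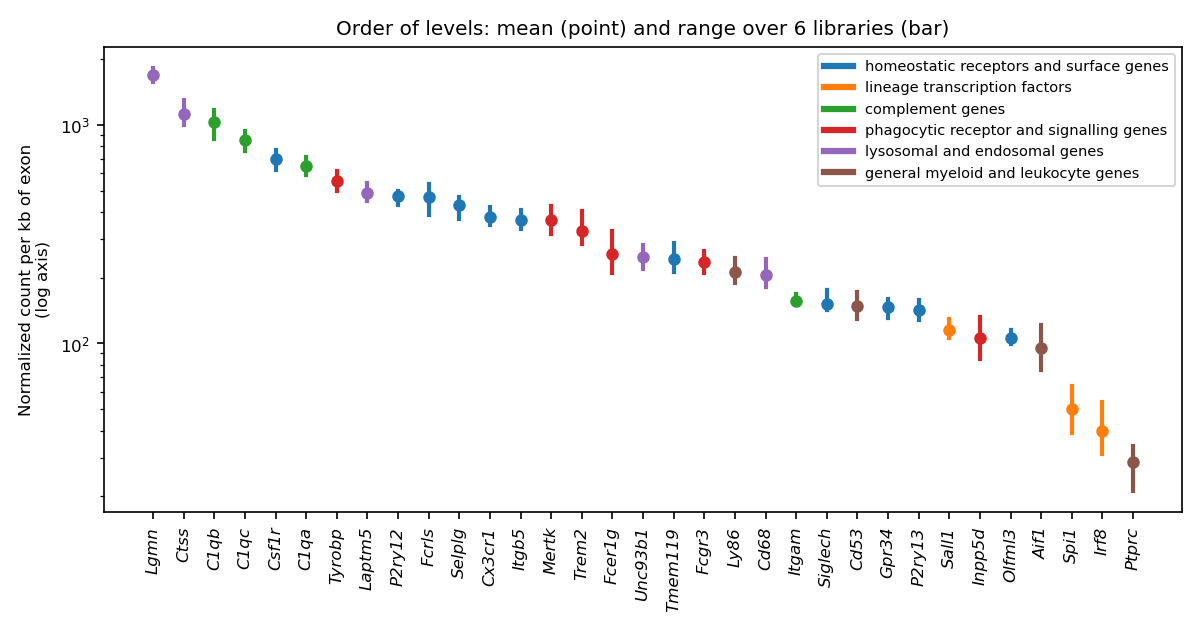
Normalized count per kb of exon (y axis, log scale) of the 33 microglia genes (x axis), ordered by their mean over 6 libraries; the point is the mean, the bar runs from the lowest to the highest library, and colours mark the gene groups. Levels run from 1687 for Lgmn to 28.7 for Ptprc, and most neighbouring bars overlap.

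In the comparison of Hetero with WT, 31 of 33 microglia genes had a fitted value below 0, where 50.9% of all tested genes did, and 0 of 33 passed the adjusted threshold in limma. Their median log2 change was -0.10, a ratio of 0.932, against -0.002 over all tested genes. The exceptions were Cd68, with a log2 change of 0.09, and Olfml3, with 0.03. At an unadjusted p under 0.05 there were 3 lower members (Fcgr3, Fcer1g and Ctss) and 0 higher, where 2.17% of all tested genes were lower and 1.66% higher. The Hetero values lay entirely below the WT values for 4 members (Fcgr3, Fcer1g, Itgam and Irf8), which is 12.1% against 4.32% of all tested genes, and entirely above them for 0, against 4.4%. In either direction 8.72% of all tested genes did not overlap. The members varied together between libraries, as given further on, so the 31 are not separate observations. In whole tissue, fewer microglia and less of these RNAs per cell cannot be told apart.

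Each gene's 95% interval is unadjusted and rests on the spread between samples, which may be technical. For 28 of 33 members both ends of the 95% interval were less than 1.5-fold from no change, as for 80.9% of all tested genes. The 5 with wider intervals were Irf8, Spi1, Aif1, Ptprc and Fcer1g. Their group means were low, from 86.6 to 213 normalized counts.

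**Figure D2:**
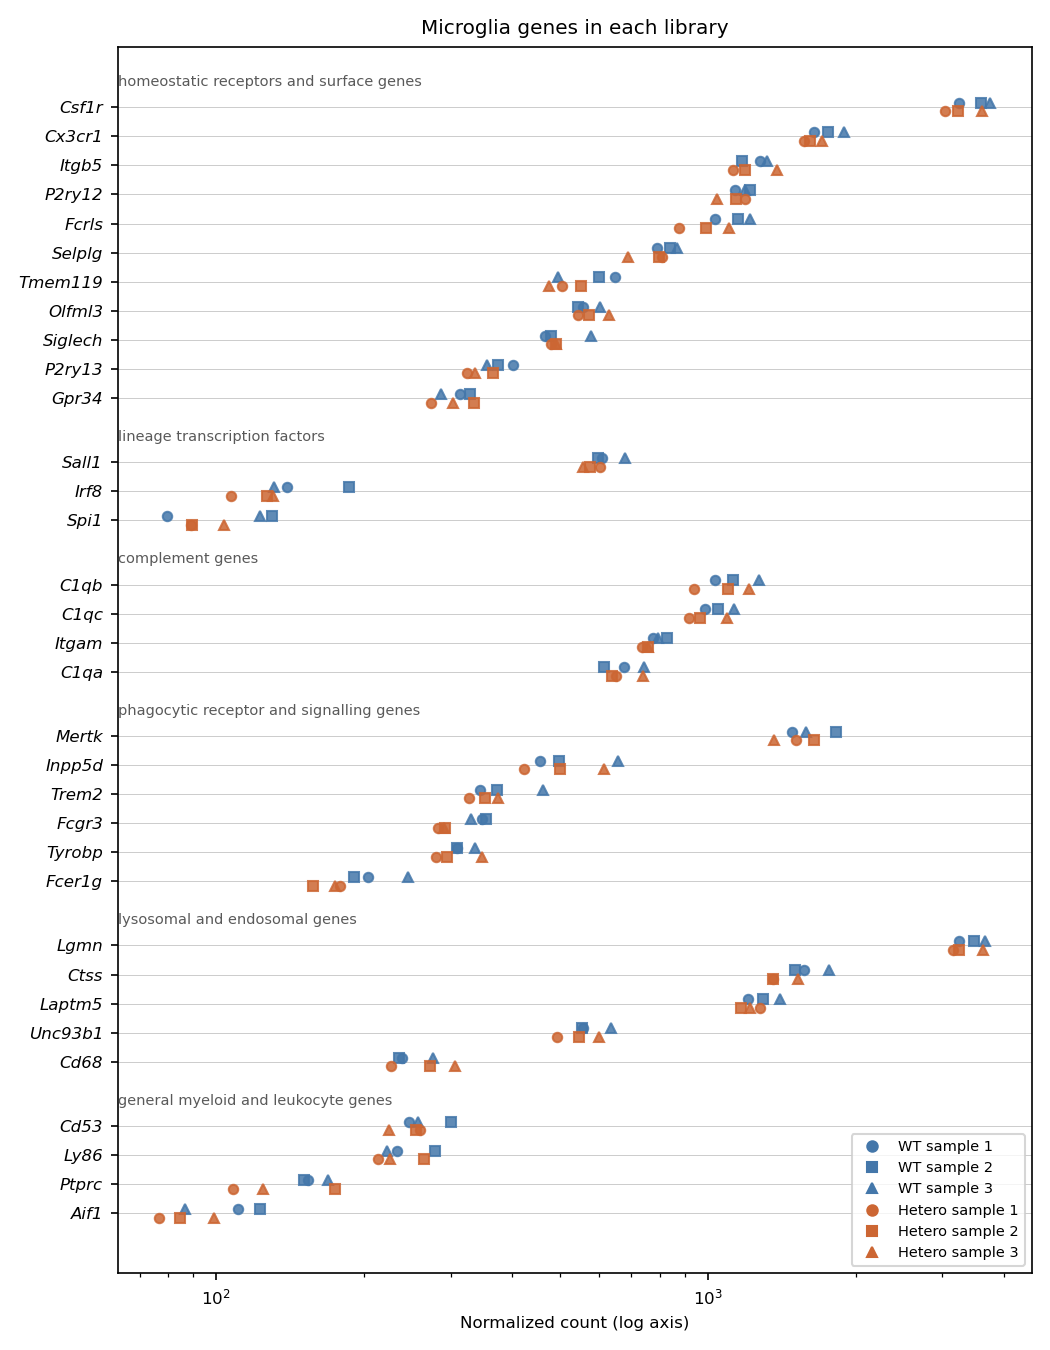
Normalized count (x axis, log scale) of each microglia gene (y axis, grouped by role) in each of 3 WT and 3 Hetero libraries, with circles, squares and triangles for samples 1, 2 and 3. For Fcgr3 the WT values lie between 330 and 355 and the Hetero values between 282 and 293, while most other genes overlap between the groups.

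The homeostatic receptors and surface genes had a lower fitted value for 10 of 11 and a median log2 change of -0.10, with 0 at an unadjusted p under 0.05. Cx3cr1, the receptor of the neuronal chemokine fractalkine, read 1645, 1756 and 1895 in WT and 1570.2, 1617 and 1711 in Hetero. The lowest WT library lay between the Hetero values, so the groups overlapped. The log2 change was -0.11 ± 0.07 (SE), a ratio of 0.926 with a 95% interval of 0.83 to 1.03. Csf1r read 3242, 3598 and 3762 in WT and 3045, 3233 and 3608 in Hetero, a ratio of 0.932. In both groups sample 3 was the highest, and Hetero sample 3 lay above 2 of the WT samples.

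Among the purinergic receptors, P2ry12, the ADP receptor that steers microglial processes to damage, read 1136, 1221 and 1189 in WT and 1192, 1143 and 1044 in Hetero. P2ry13, a related ADP receptor, read 401, 374 and 356 in WT and 324, 365 and 336 in Hetero. P2ry13 overlapped between groups by 1 Hetero library, and its log2 change was -0.14 ± 0.09 (SE) against -0.07 ± 0.07 (SE) for P2ry12. Gpr34, a receptor of lysophosphatidylserine, differed by -0.03 ± 0.11 (SE).

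Tmem119, a transmembrane protein used to tell microglia from other macrophages, read 647, 601 and 496 in WT and 505, 554 and 475 in Hetero. WT sample 3 was the lowest WT library here, unlike for Cx3cr1 and Csf1r, and the log2 change was -0.18 ± 0.11 (SE). Fcrls, an Fc receptor-like gene of mouse microglia, read 1038, 1151 and 1222 in WT and 875, 991 and 1105 in Hetero. It had the lowest log2 change of this group, -0.20 ± 0.10 (SE), with an unadjusted limma p of 0.066. Selplg, the ligand of P-selectin, differed by -0.12 ± 0.08 (SE), and its lowest library was Hetero sample 3 at 689. Siglech, a sialic acid binding lectin, differed by -0.06 and Itgb5, an integrin subunit also made by other brain cells, by -0.03. Olfml3, a secreted olfactomedin-like protein, had means of 569 ± 30.3 (WT) and 583 ± 43.0 (Hetero; SD, n = 3).

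All 3 lineage transcription factor genes had lower fitted values, with a median log2 change of -0.21. Irf8 read 139, 186 and 131.1 in WT and 107, 127 and 130.8 in Hetero. The groups did not overlap, but the sample 3 values of both were almost equal. The log2 change was -0.31 ± 0.17 (SE), a ratio of 0.807 with a 95% interval of 0.624 to 1.04. Spi1 read 79.6, 130.1 and 123 in WT and 88.9, 89.3 and 104 in Hetero, so WT sample 1 was below every Hetero library while the other 2 WT libraries were above them. Its log2 change was -0.21 ± 0.20 (SE). Sall1, a zinc finger factor of microglial identity in mice, read 610.0, 599 and 680.0 in WT and 604, 576 and 557 in Hetero, a log2 change of -0.12 ± 0.08 (SE).

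The complement genes had all 4 fitted values below 0, with a median log2 change of -0.08. C1qa read 677, 615 and 742 in WT and 650.0, 640.2 and 738 in Hetero, and its means of 678 and 676 differed by far less than their SDs of 63.8 and 53.9. The 95% interval of its ratio was 0.862 to 1.16. C1qb read 1034, 1125 and 1275 in WT and 939.7, 1102 and 1215 in Hetero, and C1qc read 989.9, 1052 and 1129 in WT and 915, 963 and 1096 in Hetero. For both genes sample 1 was the lowest and sample 3 the highest in each group, and the groups overlapped. The log2 changes were -0.08 ± 0.11 (SE) for C1qb and -0.09 ± 0.09 (SE) for C1qc.

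The 3 C1q chains assemble in equal numbers into the C1q protein. In RNA per kb of exon, C1qa made up 25.3% ± 1.60 of their sum for WT and 26.3% ± 1.28 for Hetero (SD, n = 3). C1qb made up 40.7% ± 1.29 and 40.3% ± 1.71, and C1qc 34.1% ± 0.870 and 33.4% ± 0.434. For C1qa and C1qb the means differed by less than either SD. For C1qc the means lay further apart than the Hetero SD but by less than the WT SD, and the groups overlapped. Itgam, the alpha chain of complement receptor 3, which binds C3 fragments, read 774, 828 and 792 in WT and 737, 757 and 756 in Hetero. Its groups did not overlap, with a log2 change of -0.09 ± 0.07 (SE) and an unadjusted limma p of 0.22.

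Phagocytic receptor and signalling genes had 6 of 6 fitted values below 0 and a median log2 change of -0.13. The 2 smallest p of all members were here. Fcgr3, a low-affinity receptor of IgG, read 347, 355 and 330 in WT and 282, 293 and 292 in Hetero. All 3 Hetero libraries lay below the lowest WT library, and the libraries within a group were close together. The log2 change was -0.25 ± 0.09 (SE), a ratio of 0.841 with a 95% interval of 0.731 to 0.966, an unadjusted limma p of 0.02 and an adjusted p of 0.9996. It ranked 222 of all tested genes by p. Fcgr3 belongs to a family of related Fc receptor genes, so reads may be shared among them.

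Fcer1g, the common gamma chain that carries the signal of Fc receptors, including that of Fcgr3, read 204, 191 and 245 in WT and 179, 158 and 175 in Hetero. Again every Hetero library lay below every WT library. It had the lowest log2 change of the 33 genes, -0.32 ± 0.13 (SE), a ratio of 0.803 with a 95% interval of 0.656 to 0.983, with an unadjusted limma p of 0.036 and an adjusted p of 0.9996. Tyrobp, the adaptor DAP12 that plays the same part for TREM2, read 309, 309 and 337 in WT and 281, 295 and 348 in Hetero. Its highest value was in Hetero sample 3, and its log2 change was -0.05 ± 0.11 (SE). The difference between Fcer1g and Tyrobp was not tested.

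Trem2, the lipid-sensing receptor that signals through Tyrobp, read 345, 372 and 463 in WT and 327, 353 and 375 in Hetero, a log2 change of -0.15 ± 0.12 (SE). The groups overlapped, and WT sample 3 was well above the other libraries. Mertk, a receptor for apoptotic cells that astrocytes also make, read 1485, 1829 and 1589 in WT and 1514, 1646 and 1364 in Hetero. Inpp5d, which encodes the lipid phosphatase SHIP1, an inhibitor of this signalling, read 457, 499.7 and 659 in WT and 423, 501 and 615 in Hetero. For Inpp5d, sample 3 of each group exceeded sample 1 by more than the means of 539 and 513 differed between groups.

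Lysosomal and endosomal genes had 4 of 5 fitted values below 0 and a median log2 change of -0.09. Ctss read 1567, 1506 and 1763 in WT and 1359, 1361 and 1530.1 in Hetero. Hetero sample 3 lay above WT sample 2, so the groups overlapped by a single library. The log2 change was -0.19 ± 0.08 (SE), a ratio of 0.879 with a 95% interval of 0.777 to 0.995, an unadjusted limma p of 0.044 and an adjusted p of 0.9996. Lgmn, which other brain cells also express, differed by -0.05 ± 0.07 (SE). Cd68, a lysosomal membrane glycoprotein often used as a sign of phagocytic activity, read 239, 236 and 277 in WT and 227, 273 and 306 in Hetero, with the highest fitted change of the set, 0.09 ± 0.13 (SE). Laptm5, a lysosomal membrane protein of blood-lineage cells, and Unc93b1, which carries nucleic acid sensing Toll-like receptors to endosomes, each differed by -0.09.

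Genes shared with other leukocytes had 4 of 4 fitted values below 0 and a median log2 change of -0.18. Aif1, the actin-binding protein IBA1 used to stain microglia, read 111, 123 and 86.5 in WT and 76.7, 84.3 and 98.8 in Hetero. WT sample 3 lay among the Hetero values, and the log2 change was -0.29 ± 0.18 (SE). Ptprc read 154, 151 and 169 in WT and 108, 174 and 125 in Hetero, so Hetero sample 2 was the highest of all 6. Its log2 change was -0.25 ± 0.18 (SE). The tetraspanin gene Cd53 differed by -0.12 ± 0.12 (SE), and Ly86, which encodes the MD-1 partner of a Toll-like receptor homologue, by -0.06 ± 0.13 (SE).

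**Figure D3:**
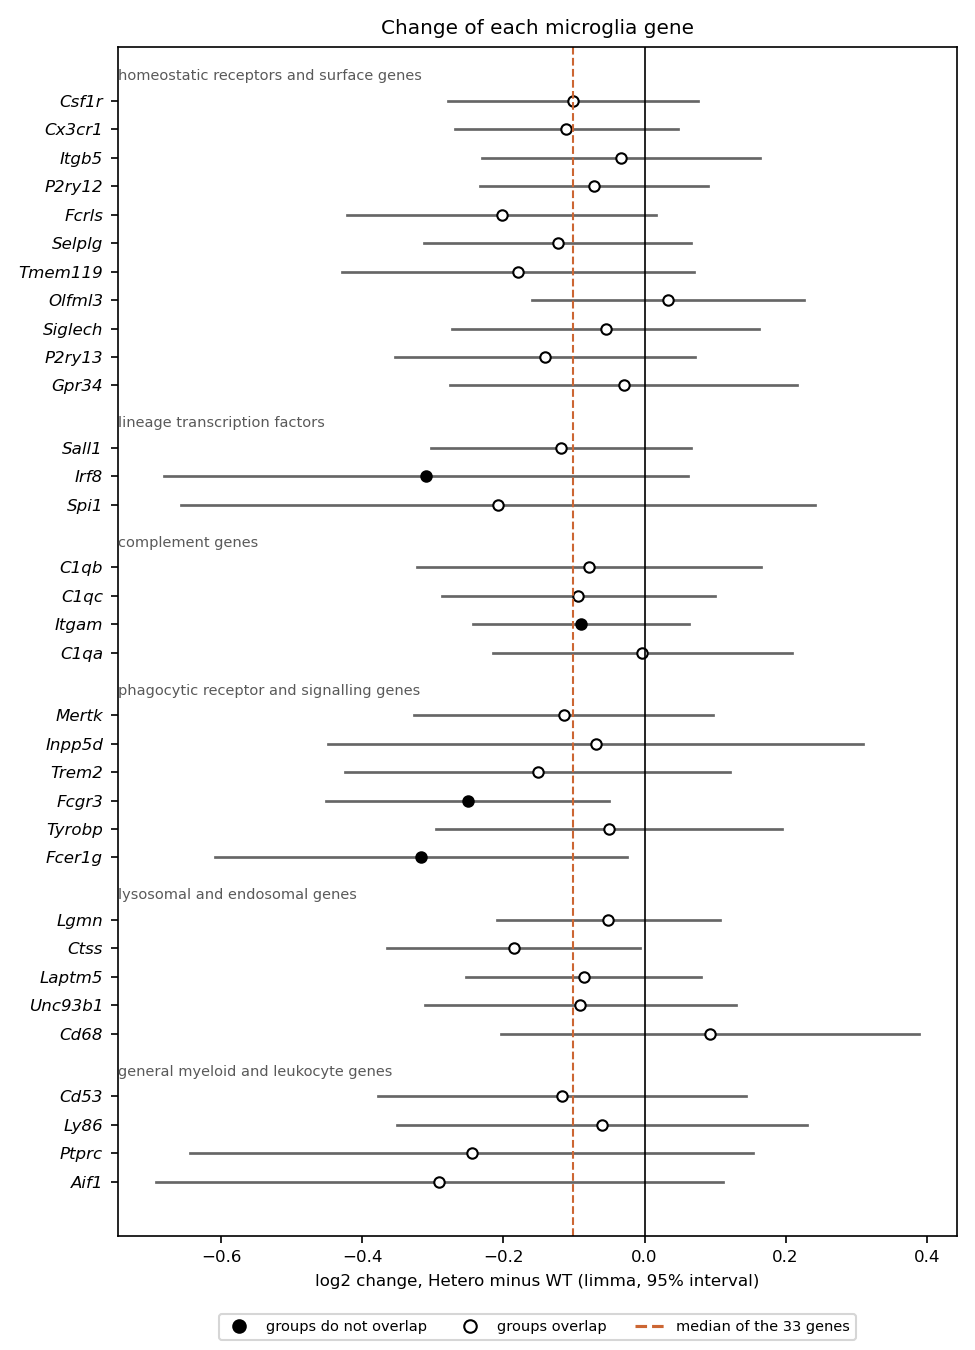
Fitted log2 change of Hetero minus WT (x axis) and its 95% interval in limma for the 33 microglia genes (y axis, grouped by role); filled points are genes whose groups do not overlap, and the dashed line is the median of -0.10. Of the 33 points 31 lie left of 0, and the intervals of Fcgr3, Fcer1g and Ctss exclude 0 before adjustment.

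The members varied together between libraries. The lowest of the 6 libraries was Hetero sample 1 for 21 of 33 members, against 14.5% of all tested genes, and the highest was WT sample 3 for 16 of 33, against 18.3%. Sample 3 was the highest of its group in both WT and Hetero for 15 members, among them Csf1r, Cx3cr1, the 3 C1q chains, Ctss, Lgmn, Trem2 and Tyrobp, against 18.1% of all tested genes. P2ry12, P2ry13, Tmem119 and Selplg were not among the 15. Each gene's log2 value was set against its own mean over the 6 libraries, and the average of these deviations gave the level of the set, which was -0.01, 0.08 and 0.11 in WT and -0.14, -0.04 and -0.001 in Hetero. Hetero sample 3 lay just above WT sample 1, so the levels of the groups overlapped. The levels of the 11 homeostatic genes did not overlap, with 0.02 in WT sample 1 as the lowest WT value and -0.01 in Hetero sample 2 as the highest Hetero value. The levels of every other group of members overlapped, and the difference between member groups was not tested.

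The count of lower members fell most without Hetero sample 1 or WT sample 3. Without Hetero sample 1, 24 of 33 fitted values were below 0 with a median log2 change of -0.10, against -0.10 in the full fit. Leaving out WT sample 1 gave 31, with a median of -0.14. Without WT sample 3 there were 26, with a median of -0.07. Without sample 3 of either group there were 30, with a median of -0.09, and without Hetero sample 3 there were 33, with a median of -0.13. The members with an unadjusted limma p under 0.05 numbered between 1 and 6 over the settings tried, all of them lower in Hetero, against 3 in the full fit; there was 1 without Hetero sample 1 and there were 6 without sample 3 of either group.

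Other genes enriched in microglia, from a list of 43, had 34 lower fitted values and a median log2 change of -0.11. Their levels did not overlap between groups, with 0.01 to 0.12 in WT and -0.07 to -0.02 in Hetero. These genes were read in the same libraries as the members, so their levels are not a separate observation. At an unadjusted p under 0.05 there was 1 lower gene, where 2.17% of all tested genes were lower. That gene was Slc15a3, a lysosomal peptide and histidine transporter, which read 64.8, 82.6 and 78.6 in WT and 36.4, 48.0 and 68.5 in Hetero, overlapping by 1 library, a log2 change of -0.59 ± 0.24 (SE). Nckap1l, the haematopoietic partner of CYFIP proteins in the WAVE complex, read 514, 544 and 562 in WT and 426, 516 and 489 in Hetero. The groups overlapped by 1 library, and the log2 change was -0.18 ± 0.09 (SE). Ptgs1, which encodes the cyclooxygenase COX-1, read 438, 408 and 511 in WT and 399, 388 and 402 in Hetero without overlap. The Hetero values lay entirely below the WT values for 5 genes of this list (11.6%), Ptgs1 among them, against 4.32% of all tested genes. Itgb2, the beta chain that pairs with Itgam, differed by -0.19 ± 0.17 (SE).

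Ligands and partners of microglial receptors had 6 of 16 lower fitted values and a median log2 change of 0.02, with 0 at an unadjusted p under 0.05. Cx3cl1, the neuronal ligand of Cx3cr1, had means of 30654 ± 1299 (WT) and 30879 ± 2831 (Hetero; SD, n = 3). The Csf1r ligands Csf1 and Il34 differed by 0.03 ± 0.10 (SE) and -0.06 ± 0.09 (SE). Tgfbr1, a receptor subunit for TGF-beta, differed by -0.14 ± 0.09 (SE).

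Complement cascade genes and regulators had a lower fitted value for 13 of 20 tested and a median of -0.08. At an unadjusted p under 0.05 there were 0 lower and 1 higher, against 2.17% and 1.66% of all tested genes. The higher gene was Nptx1, a neuronal pentraxin, with a log2 change of 0.17 ± 0.07 (SE). Csmd2, a complement control protein of neurons, differed by -0.15 ± 0.07 (SE) and C4b by -0.20 ± 0.11 (SE). The groups did not overlap for 1 of the 20 (5%), which was higher in Hetero, against 4.4% of all tested genes. C3, the central component, read between 2.29 and 12.1 in the 6 libraries, was under the filter and was not tested.

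Genes of the disease-associated state had 7 of 16 lower fitted values and a median of 0.01. Apoe, which astrocytes also make at high levels, had means of 28772 ± 2145 (WT) and 29007 ± 4037 (Hetero; SD, n = 3). Timp2, a metalloproteinase inhibitor, differed by -0.09 ± 0.05 (SE) and the chemokine gene Ccl6 by -0.40 ± 0.23 (SE). Neither overlapped between groups. They were the only 2 of the 16 (12.5%) with Hetero values entirely below the WT values, against 4.32% of all tested genes. For 0 of the 16 they lay entirely above, against 4.4%. Fitted values were higher for 9 of the 16, among them Csf2ra, with a log2 change of 0.15 ± 0.08 (SE). Timp2 stood at 2072 per kb of exon, above every one of the microglia genes, and its cell source was not tested. Cst7 and Clec7a, which mark that state, were under the filter, with Cst7 between 2.4 and 6.87 and Clec7a between 1.07 and 15.3.

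Other myeloid cells were measured by their own lists. Border-associated macrophage genes had 4 of 9 lower fitted values and a median of 0.02. Mrc1, their mannose receptor, read 291, 276 and 218 in WT and 202, 335 and 288 in Hetero, and Cd163, a haemoglobin scavenger receptor, read between 25.8 and 75.8. The 10 genes of this list summed to 1481 to 1807 in WT and 1469 to 1849 in Hetero, and each was above 0 in every library. Of 12 blood leukocyte genes 10 were in the table, 4 were tested and 3 of these were lower. They summed to 96.8 to 144 in WT and 111 to 135 in Hetero. The T cell gene Cd3e read at most 2.07 and was at 0 in some library.

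Markers of other brain cells were compared in the same way. All 9 tested markers of oligodendrocyte precursors had lower fitted values, with a median log2 change of -0.23, 4 at an unadjusted p under 0.05, where 2.17% of all tested genes were, and levels that did not overlap between groups. Their sums were 11953 to 13929 in WT and 10158 to 11944 in Hetero. Gpr17, a receptor of committed precursors, had a log2 change of -0.25 ± 0.07 (SE). Astrocyte markers had 8 of 10 lower fitted values and a median of -0.06, with sums of 185556 to 209614 in WT and 180266 to 193189 in Hetero. Slc1a3, a glutamate transporter and the marker with the smallest p, read 17697, 20739 and 21145 in WT and 17412, 17562 and 17471 in Hetero. It was the only 1 of the 10 (10%) with Hetero values entirely below the WT values, against 4.32% of all tested genes. At an unadjusted p under 0.05, 2 astrocyte markers were lower and 0 higher, against 2.17% and 1.66%. The part of the precursor and astrocyte markers in the values of the microglia genes was not tested.

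Neuron markers had 6 of 11 lower fitted values and a median of -0.02, and endothelial markers 5 of 10 and a median of 0.002. At an unadjusted p under 0.05 the neuron markers had 1 lower (Slc17a7) and 1 higher (Rbfox3), against 2.17% and 1.66% of all tested genes. Without overlap between groups, 2 neuron markers were lower (18.2%) and 2 higher (18.2%), against 4.32% and 4.4% of all tested genes. Oligodendrocyte markers had 8 of 10 lower fitted values and a median of -0.06, and their level was lowest in sample 1 of each group (-0.27 in WT, -0.21 in Hetero) and highest in sample 3 (0.32 and 0.15). Meningeal fibroblast markers had 9 of 10 higher fitted values and a median of 0.23. Their levels varied widely and overlapped between groups, with 0.30, -0.31 and -0.42 in WT and -0.06, 0.32 and 0.17 in Hetero. Of the 10, only Slc47a1 had an unadjusted p under 0.05, and only it did not overlap between groups. It was higher in Hetero, with a log2 change of 1.08 ± 0.38 (SE). This is 10% of the list, against 1.66% and 4.4% of all tested genes. The 13 mitochondrially encoded messages had 11 lower fitted values and a median of -0.10. Of these, 6 had an unadjusted p under 0.05 and 6 (46.2%) did not overlap, all lower in Hetero, against 2.17% and 4.32% of all tested genes. Their part in the values of the microglia genes was not tested either.

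**Figure D4:**
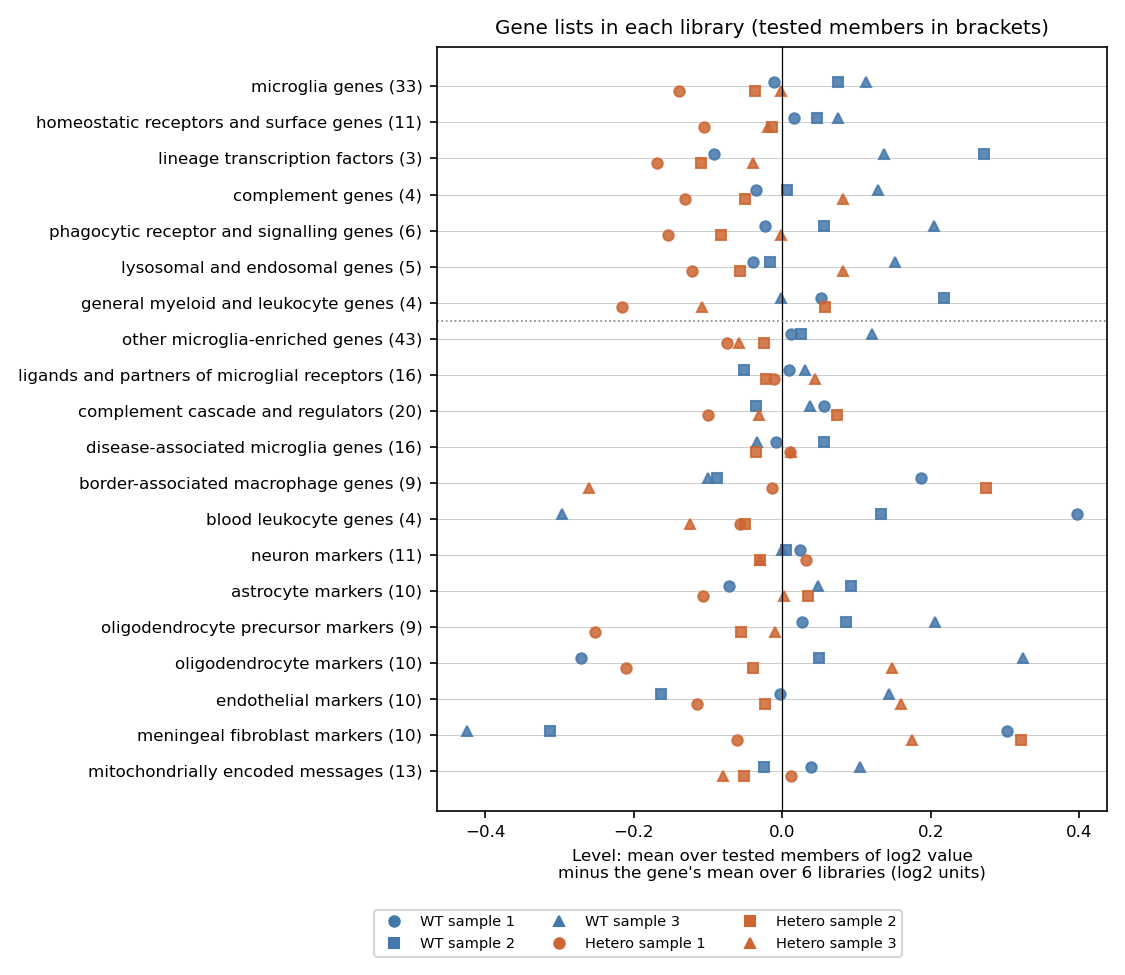
Level of each gene list in each library (x axis, average deviation of its tested members from their own means, in log2 units), with the microglia groups above the dotted line and other lists below it; 1 symbol is a library. Hetero levels of the homeostatic genes lie between -0.11 and -0.01, below the WT levels of 0.02 to 0.07, while the levels of all 33 microglia genes overlap by 1 library. The levels of every other group of members overlap as well. The red blood cell genes, with levels from -0.95 to 0.97, are not drawn.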

How the data were processed

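The 6 prefrontal cortex samples were sequenced from stranded mRNA libraries, per the labels' protocols. The authors deposited a single table with a normalized count for each gene in each sample. The deposited values are a signal that the authors had normalized between samples: they carry decimals, and their totals are nearly equal. Salmon 0.11.2, R 3.6.0, DESeq2 1.19.11 and build GRCm38 appear in the submitters' processing notes. The scaling formula, annotation release and any gene filter are not stated there.

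Low values (under 60) fell on whole multiples of the best step, within 0.02 of a step, for only 15.5% to 28.1% of genes per library. Reads could therefore not be recovered and no count test was used. The total over the step estimated depth. Equal scaled values rest on fewer reads in shallower libraries.

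Identifiers were joined to GENCODE M21 on GRCm38 (17875 of 17889 found). Log2(value + 1) of genes averaging 10 or more entered limma 3.58.1 under R 4.3.3 (trend and robust, two-sided, Benjamini-Hochberg over 14969 genes, threshold 0.05). Log2 changes are on that scale, which understates changes of low genes. The fit was first tried on simulated data, where it had only to find changes larger than those of any member. Exon length is the union of exons in the basic annotation, and promoters are RefSeq's, GRCm38.p6. The 33 members, their groups and the other lists were chosen with earlier results of these data known. All members are named; of the other lists, up to 3 genes with the smallest p and chosen ligands, subunits and markers. Alternatives were other filters on low values, pseudocounts of 0.5 and 8, limma without trend and robust fitting, trimmed mean of M values (TMM) factors, median centring, a replicate block, and leaving out samples. Replicates were distinct: the closest pair of a group differed by a median of 0.09 in log2 value.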

Additional observations from a re-analysis of the deposited data

How the results depend on the processing

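Over 15 alternatives, 0 of the 33 microglia genes passed the adjusted threshold in limma in any of them, and 23 kept the sign of their fitted value in each. The median of their log2 changes lay between -0.14 and -0.07 when 1 sample was left out, and in each alternative it moved by less than 0.07, the SD of the set's level between replicates. Over all tested genes, 0 passed in the full fit. With the replicate number as a block 2 passed (Cyfip2 and Jun), without sample 3 of either group 4 (Cyfip2, Jun, Gm7334 and AC149090.1), and leaving out 1 sample gave 0 to 1 (Rpl15-ps3 without WT sample 1, Gm10240 without Hetero sample 2). Those other than Cyfip2 were named after their values were seen. The cause of these changes was not tested. Cyfip2 had a log2 change of -0.57 with the replicate block (adjusted p = 0.0016) and of -0.565 without sample 3 of either group (adjusted p = 0.013), and its adjusted p was otherwise above the threshold.

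The replicate numbers were not taken as pairs: the correlations over genes of deviations from the group means were -0.01 for the samples numbered 1, 0.004 for those numbered 2 and 0.23 for those numbered 3, the highest of all 9 combinations, and 1 of 3 WT samples correlated best with its own number. With the replicate block 4 members had an unadjusted p under 0.05, against 3 without it, and the smallest adjusted p of a member was 0.74.

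When 1 sample was left out, signs turned for these genes without passing the threshold, with log2 changes from -0.10 to 0.045 for Gpr34, -0.11 to 0.040 for Siglech, -0.024 to 0.079 for Olfml3, -0.12 to 0.030 for Itgb5, -0.071 to 0.064 for C1qa, -0.16 to 0.021 for C1qb, -0.14 to 0.014 for Tyrobp, -0.21 to 0.085 for Inpp5d, -0.0065 to 0.21 for Cd68 and -0.15 to 0.036 for Ly86. Outside the set the ranges were -0.066 to 0.054 for Cx3cl1, -0.031 to 0.11 for Csf1, -0.14 to 0.017 for Il34, -0.10 to 0.093 for Apoe, -0.11 to 0.26 for Mrc1 and -0.61 to 0.15 for Cd163. Without sample 3 of either group Siglech was at 0.034, Cx3cl1 at -0.032, Apoe at -0.046, Mrc1 at -0.12 and Cd163 at 0.089. Spi1, Irf8, Aif1 and Ptprc, with group means of 86.6 to 158 normalized counts, had standard errors of 0.17 to 0.20, and changes past 1.5-fold lay inside their 95% intervals. Inpp5d, with group means of 513 and 539, had a standard error of 0.17. How much of these errors comes from depth was not tested.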
